A study of Sus scrofa with 12 samples.

Results

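LATS1, LATS2, YAP1, WWTR1, TEAD1, AMOTL1, AMOTL2, CCN1, CCN2 and ANKRD1, 10 genes of the Hippo pathway and its output, were followed through a MeRIP-seq experiment in pig intestinal epithelial cells. They were taken by symbol from a table of merged peaks and by gene identifier from a gene expression table. They had 33 of the 25055 merged peaks, on 9 of the 10 genes, and all 10 were among the 20889 genes of the expression table. MeRIP-seq maps N6-methyladenosine (m6A), a modified base of mRNA, by sequencing both the RNA fragments that an m6A antibody binds and fragments left unselected.

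The Hippo pathway is a kinase cascade that restrains growth when cells are crowded or lack tension. The kinases LATS1 and LATS2 phosphorylate the coactivators YAP1 and TAZ (the product of WWTR1), which keeps them out of the nucleus, and AMOTL1 and AMOTL2 are junction proteins that hold YAP1 at the membrane and cytoskeleton. Free YAP1 and TAZ bind TEAD transcription factors and switch on genes such as CCN1, CCN2 and ANKRD1. In the gut, YAP1 and TAZ are best known for their part in epithelial repair.

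The cells were wild-type IPEC-J2, a line from the pig small intestine, kept for 24 h with 25 µM (OAA) or 0 µM (CON) of the compound labelled OAA. Each treatment had 3 numbered replicates, each with a library labelled input and a library labelled IP, so that there were 12 libraries in 4 groups of 3, and all carried the same batch label. The labels do not say that the replicates were separate cultures. The p-values here therefore set each difference against the spread between these libraries, and that spread may be technical only. In bulk RNA, fewer cells that express a gene and less of its RNA per cell cannot be told apart.

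Reads in peaks came to 19.0 to 21.5 M reads in OAA and 16.5 to 23.0 M reads in CON for the libraries labelled input, and to 4.36 to 4.61 M reads in OAA and 3.71 to 4.46 M reads in CON for those labelled IP. The labels and the counts disagree on which libraries are the antibody part. In OAA 97.3% and in CON 98.3% of the 24931 peaks with a count held more labelled-input than labelled-IP reads. These are raw counts, not scaled for the library totals in peaks given above. The codes of the deposited FPKM columns are those of the labelled-IP libraries. Groups keep the names of their labels. The log2 of the labelled-input level over the labelled-IP level is called the peak ratio, and it runs the same way as the log2 ratios in the authors' deposited table. Should the labels be right, a high peak ratio would mean low antibody enrichment. In that case the FPKM would describe antibody-bound RNA rather than mRNA levels. All 5 epithelial markers in the table (EPCAM, CDH1, KRT8, KRT18 and CLDN4) reached a mean of 1 FPKM, with summed levels of 946 to 1064 FPKM in OAA and 1020 to 1113 FPKM in CON. Of the enterocyte markers, sucrase-isomaltase reached 12.8 FPKM, whereas villin (VIL1) stood at 0.246 and FABP2 at 0.00267. Of the 4 fibroblast and the 4 leukocyte markers, none reached 1 FPKM and DCN and PTPRC were at 0. The 3 endothelial markers each averaged above 1 FPKM, with CDH5 at 3.78, PECAM1 at 1.44 and KDR at 1.15. Their summed levels were 6.19 to 6.90 FPKM in OAA and 5.52 to 6.73 FPKM in CON. The OAA labelled-IP library of replicate 3 stood apart: with it, 1 peak was called between OAA and CON in the libraries labelled IP, and without it 50 were.

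By FPKM, which is scaled for gene length, the targets and the kinases spanned a wide range of levels. Over the 6 libraries with FPKM the order of mean levels was CCN1, TEAD1, CCN2, LATS2, AMOTL2, YAP1, LATS1, AMOTL1, WWTR1 and ANKRD1. The ranges of neighbours overlapped for CCN2 and LATS2, for AMOTL2 and YAP1, for LATS1 and AMOTL1, and for WWTR1 and ANKRD1, and were separate for the other neighbours. LATS2 had 21.6 ± 1.30 FPKM in OAA and 22.3 ± 1.03 FPKM in CON, and its paralogue LATS1 had 8.18 ± 0.407 FPKM in OAA and 8.47 ± 0.635 FPKM in CON (SD, n = 3 each, as for all means below). YAP1 averaged 12.0 ± 0.768 FPKM in OAA and 12.0 ± 0.092 FPKM in CON. WWTR1 stood far lower, at 1.70 ± 0.155 FPKM in OAA and 1.85 ± 0.209 FPKM in CON. YAP1 thus had a higher FPKM than WWTR1 in all 6 libraries. TEAD1 averaged 34.1 ± 3.59 FPKM in OAA and 33.7 ± 0.564 FPKM in CON.

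Among the targets, CCN1, a secreted matrix protein, had the highest mean FPKM of all members. It measured 75.4, 71.4 and 61.9 FPKM in the OAA libraries, against 58.9, 65.4 and 68.7 FPKM in the CON libraries. The groups overlapped, since the lowest OAA library, replicate 3, lay below 2 of the CON libraries. CCN2, a related matrix protein, measured 23.0, 25.1 and 23.4 FPKM in OAA, against 20.6, 22.5 and 21.9 FPKM in CON. It was the 1 member of 10 whose groups did not overlap, a separation seen in 8.55% of the 10763 genes tested, and the difference of 0.13 ± 0.06 (SE) on the scale of log2(FPKM + 1) did not pass limma's test (adjusted p = 1.00). ANKRD1, a nuclear ankyrin-repeat protein, measured 1.13, 1.22 and 2.16 FPKM in OAA, against 1.37, 2.17 and 2.43 FPKM in CON, with overlapping groups.

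**Figure D1:**
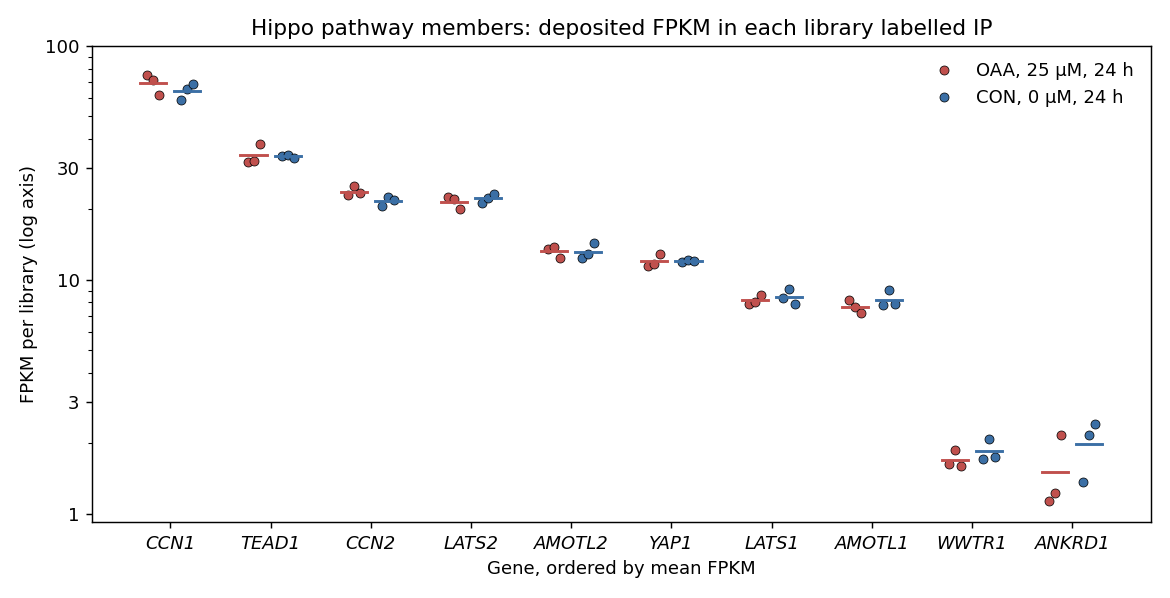
FPKM of the 10 members in each of the 6 libraries with FPKM (log axis), OAA left of CON for each gene. CCN1 lies highest at 58.9 to 75.4 FPKM and WWTR1 and ANKRD1 lowest, and the points of OAA and CON are separate for CCN2 alone.

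No member passed the test between OAA and CON by FPKM: limma called 0 of 10763 genes (0.0%) at an adjusted p under 0.05, with 356 genes (3.31%) at an unadjusted p under 0.05. The members' differences on the log2(FPKM + 1) scale ran from -0.26 (ANKRD1) to 0.13 (CCN2), with a median of -0.03 beside -0.01 for all genes tested. Without the OAA library of replicate 3, the limma difference was 0.19 for CCN1 (adjusted p = 0.196). It was 0.14 for CCN2 (adjusted p = 0.281) and -0.44 for ANKRD1 (adjusted p = 0.223), and none was called. With each single library left out in turn, the CCN1 difference ran from 0.048 to 0.19. The range was 0.094 to 0.16 for CCN2 and -0.44 to -0.15 for ANKRD1. Across the 6 libraries CCN1 and CCN2 had a Pearson r of 0.58, while ANKRD1 had -0.35 with CCN1 and -0.22 with CCN2, given here as a description. The genes whose levels ran closest to the mean standardised log2(FPKM + 1) of the 3 targets were MAN2A2 (r = 0.983), IMMT (r = 0.979) and APTX (r = 0.979). Over the same 6 libraries, 64 of 10178 genes reached an r of 0.9. Among so many genes, r values this high can arise by chance over 6 libraries, and they were not tested. The 3 targets did not run together themselves, so these genes are named as a description only.

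The 33 member peaks lay along whole transcripts. By the deposited annotation, 8 covered a start codon, 8 lay in coding sequence, 7 covered a stop codon, 7 lay in a 3′ UTR and 3 in a 5′ UTR. LATS2 had 6 peaks, LATS1 and YAP1 had 5 each, TEAD1 and AMOTL2 had 4 each, CCN1 had 3, and AMOTL1, CCN2 and ANKRD1 had 2 each. Among the 11422 genes with a peak the median was 2 peaks, and 6.66% had 6 or more. WWTR1 had none. Of the 1712 genes with a mean of 1 to under 3 FPKM, the range WWTR1 falls in, 71.3% had a listed peak. Of the 33 peaks, 6 were also listed under another gene: LATS1 peak 1, all CCN1 peaks and both ANKRD1 peaks.

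Within each of the 9 genes, the peak ratio spanned a wider range between peaks than any of its peaks differed between treatments. In OAA the ratio was called higher than that of the typical peak in 13 member peaks and lower in 12 of 33, beside 34.1% higher and 34.4% lower among all 24145 peaks tested by edgeR. In CON it was called higher in 12 and lower in 14, beside 33.9% and 34.2% of all peaks. The members' median ratio was -0.18 in OAA and 0.06 in CON, with 0.03 over all peaks in both. The authors' deposited log2 ratios were positive for all 33 peaks, from 2.15 to 7.64 in OAA and from 1.81 to 7.42 in CON. A peak called lower here is therefore lower than the typical peak only. The members' shares of calls, 25 of 33 in OAA and 26 of 33 in CON, stood beside 68.5% and 68.0% of all peaks.

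**Figure D2:**
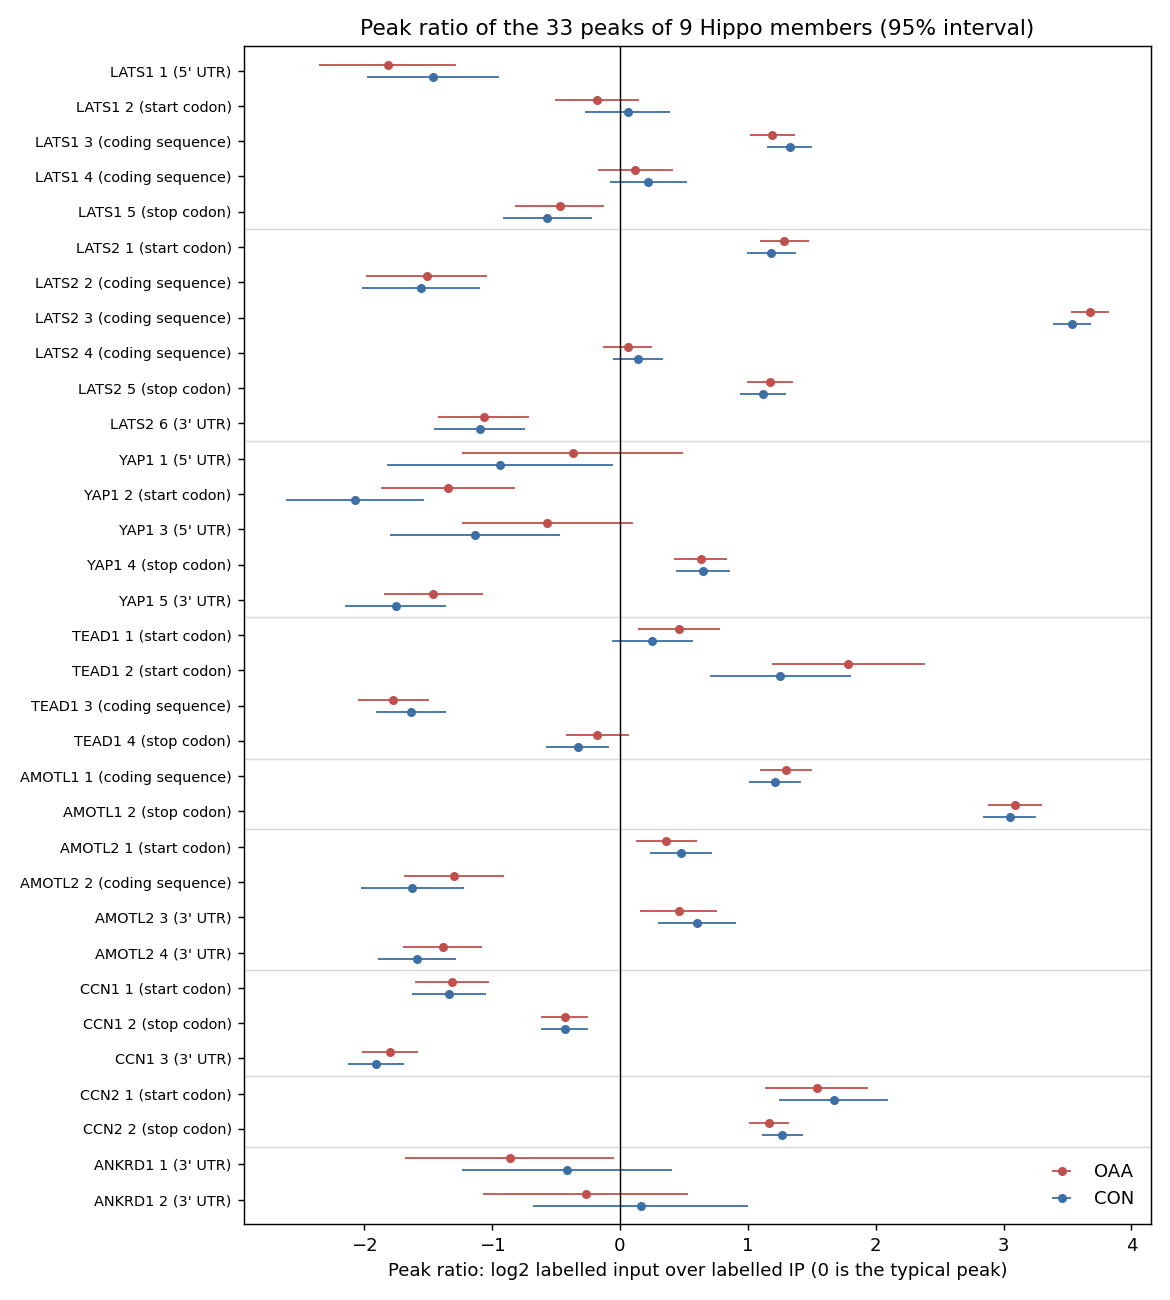
Peak ratio (log2 of labelled input over labelled IP, with 95% intervals) of the 33 member peaks, OAA and CON, by gene and in order along the transcript. LATS2 peak 3 and AMOTL1 peak 2 lie above 3 in both treatments, and all CCN1 peaks lie below 0.

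LATS2, the shorter LATS paralogue and itself a YAP1 target, had the highest ratio of the 33 in peak 3, a coding-sequence peak of 1125 bp at chromosome 11, positions 1236064 to 1237188 (numbered as in the deposited table; its genome build is not given in the sources used here). In the libraries labelled input, LATS2 peak 3 held 1256, 1286 and 1193 CPM (read counts scaled to the library's total in peaks) in OAA, against 1258, 1191 and 1174 CPM in CON. In the libraries labelled IP it held 128, 119 and 106 CPM in OAA, against 123, 132 and 130 CPM in CON. All 6 libraries labelled input lay far above all 6 labelled IP, and OAA and CON overlapped within each label. Its peak ratio of 3.68 ± 0.07 (SE) in OAA, or 12.8-fold, was larger than that of 98.5% of the peaks tested by edgeR (adjusted p = 7.11e-27). In CON it was 3.54 ± 0.07, or 11.6-fold (adjusted p = 2.04e-26). The peak held 75.2% of the gene's labelled-input peak reads in OAA and 75.1% in CON, but 27.4% and 28.8% of the labelled-IP peak reads.

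Within LATS2 the 6 peaks ranged over 5.19 log2 units of ratio in OAA and 5.09 in CON. This was wider than in 95.3% of the 171 genes with 6 tested peaks of their own, LATS2 included. The median range of these genes was 2.72 in OAA and 2.70 in CON. The start-codon peak 1 and the stop-codon peak 5 were called higher in both treatments (1.28 and 1.17 in OAA, 1.18 and 1.12 in CON). Peak 1 spans 27070 bp of genome, introns included, so its position in the transcript is coarse. The short coding peak 2 was called lower, at -1.51 in OAA and -1.56 in CON, as was the 3′ UTR peak 6, at -1.07 in OAA and -1.10 in CON. Peak 4, also in coding sequence, was not called (0.06 in OAA, 0.14 in CON). In OAA it became called lower with library size alone, but higher without OAA labelled-input replicate 3. In CON it became called higher with the relative log expression scaling, with DESeq2 or without OAA labelled-input replicate 3.

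LATS1 also had its main peak within the coding sequence, in 1150 bp of coding sequence at chromosome 1, positions 16299840 to 16300989. Labelled-input levels there were 154, 154 and 171 CPM in OAA, against 176, 175 and 180 CPM in CON, and labelled-IP levels were 75.3, 86.3 and 92.4 CPM in OAA, against 92.2, 82.0 and 87.3 CPM in CON. Its peak ratio was 1.19 ± 0.09 (SE) in OAA and 1.33 ± 0.09 in CON, called higher in both. Per kilobase of peak, labelled-input signal was 1107 CPM in LATS2 peak 3 against 139 CPM in LATS1 peak 3 in OAA, and 1073 against 154 CPM in CON. The labelled-IP signal per kilobase was much closer between the paralogues, at 105 CPM (LATS2) and 73.6 CPM (LATS1) in OAA and at 114 and 75.8 CPM in CON. These peaks were picked for their level, so the contrast between paralogues is given without a test. The 5′ UTR peak of LATS1, which overlaps an unnamed gene on the minus strand, and its stop-codon peak were called lower in both treatments (-1.82 and -0.47 in OAA, -1.46 and -0.57 in CON). The call of the stop-codon peak in OAA was lost without the OAA labelled-input library of replicate 1 or 3, and without the OAA labelled-IP library of replicate 3.

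Of the angiomotin-like genes, AMOTL1 had the second-highest ratio of the 33 peaks, in stop-codon peak 2 at chromosome 9, positions 26973508 to 26974057. This peak held 270, 265 and 236 CPM in OAA, against 255, 277 and 271 CPM in CON, in the libraries labelled input, and 36.9, 39.0 and 33.7 CPM in OAA, against 40.2, 45.9 and 32.9 CPM in CON, in those labelled IP. The ratio was 3.09 ± 0.10 (SE) in OAA, or 8.51-fold, and 3.05 ± 0.10 in CON, or 8.28-fold, with OAA and CON overlapping within each label. AMOTL1 had 7.68 ± 0.475 FPKM in OAA and 8.23 ± 0.706 FPKM in CON. Both AMOTL1 peaks were called higher in both treatments. Its coding peak 1 spans 18735 bp of genome, introns included, so the position of that peak in the transcript is coarse. AMOTL2, at 13.3 ± 0.761 FPKM in OAA and 13.2 ± 1.07 FPKM in CON, had calls in both directions: start-codon peak 1 and 3′ UTR peak 3 were called higher (0.36 and 0.46 in OAA, 0.48 and 0.60 in CON), and coding peak 2 and 3′ UTR peak 4 were called lower (-1.30 and -1.39 in OAA, -1.62 and -1.59 in CON). Averaged over both treatments, its highest labelled-input level was in peak 1 (chromosome 13, positions 75504677 to 75505101), although peak 3 was higher in CON. Peak 1 held 41.5, 42.2 and 47.4 CPM in OAA, against 43.9, 41.5 and 39.5 CPM in CON, in the libraries labelled input, and 46.2, 36.8 and 40.3 CPM in OAA, against 37.8, 34.7 and 38.3 CPM in CON, in those labelled IP. Scaled by library size alone, AMOTL2 peaks 1 and 3 were no longer called, with peak 1 at 0.09 in OAA and 0.18 in CON. In OAA the call of peak 1 was also lost without OAA labelled-IP replicate 2 (0.28), and that of peak 3 without OAA labelled-IP replicate 3.

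The coactivator YAP1 had its main peak over the stop codon, at chromosome 9, positions 32921840 to 32922289. Labelled-input levels were 79.2, 77.8 and 81.0 CPM in OAA, against 81.3, 85.9 and 72.2 CPM in CON, and labelled-IP levels were 63.2, 53.5 and 69.4 CPM in OAA, against 62.1, 61.4 and 64.7 CPM in CON. The ratio was called higher, at 0.63 ± 0.10 (SE) in OAA and 0.65 ± 0.10 in CON, and this peak held 82.9% of the gene's labelled-input peak reads in OAA and 85.8% in CON, beside 58.4% and 55.8% of the labelled-IP peak reads. The start-codon peak of YAP1, at positions 32811716 to 32811790, had the lowest ratio of the 33 in CON, -2.07 ± 0.27, and a ratio of -1.35 ± 0.26 in OAA. It was a peak of few reads, at 4.61, 3.63 and 3.05 CPM in OAA, against 2.65, 3.27 and 1.87 CPM in CON, in the libraries labelled input. In those labelled IP it held 12.2, 11.3 and 11.5 CPM in OAA, against 12.4, 12.8 and 15.1 CPM in CON. The 3′ UTR peak 5, next to the stop-codon peak, was called lower at -1.46 in OAA and -1.75 in CON.

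TEAD1, the DNA-binding partner of YAP1 and TAZ, had its highest labelled-input levels in stop-codon peak 4 (chromosome 2, positions 46403347 to 46403571), at 47.2, 56.3 and 68.2 CPM in OAA, against 49.8, 58.9 and 52.2 CPM in CON. The labelled-IP levels were higher, at 67.9, 75.6 and 91.2 CPM in OAA, against 89.7, 84.5 and 75.2 CPM in CON. Its ratio was -0.18 ± 0.12 (SE) in OAA, not called, and -0.33 ± 0.12 in CON, called lower (adjusted p = 0.0175 by edgeR). That call in CON was lost with the relative log expression scaling (-0.25), with DESeq2 (-0.24), and without CON labelled-input replicate 1 or 3, OAA labelled-input replicate 2 or CON labelled-IP replicate 1, and ran from -0.41 to -0.21 with single libraries left out. In OAA the peak became called lower with library size alone (-0.45). Peak 2, over the start codon, was called higher (1.78 in OAA, 1.25 in CON) and peak 3, in coding sequence, lower (-1.77 in OAA, -1.64 in CON). These 2 peaks span 44893 and 104407 bp of genome, introns included, so their position in the transcript is coarse.

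The targets split by gene. Both CCN2 peaks were called higher than the typical peak, at 1.54 and 1.16 in OAA and 1.67 and 1.27 in CON. Its stop-codon peak 2 (chromosome 1, positions 31676524 to 31676998) held 224, 223 and 231 CPM in OAA, against 211, 212 and 223 CPM in CON, in the libraries labelled input. In the libraries labelled IP it held 114, 122 and 130 CPM in OAA, against 106, 108 and 118 CPM in CON. The labelled-input groups were narrowly separate and the labelled-IP groups overlapped.

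All 3 CCN1 peaks were called lower than the typical peak, at -1.32, -0.43 and -1.80 in OAA and -1.34, -0.43 and -1.91 in CON. The stop-codon peak 2 (chromosome 4, positions 130392829 to 130393053) held 88.4, 87.2 and 86.5 CPM in OAA, against 73.1, 86.2 and 84.7 CPM in CON, in the libraries labelled input, and 145, 136 and 148 CPM in OAA, against 122, 137 and 148 CPM in CON, in those labelled IP. The CCN1 peaks are also listed under ZNHIT6, a gene on the opposite strand at 25.1 ± 0.883 FPKM in OAA and 26.2 ± 1.37 FPKM in CON, and the sources used here do not say that strand was used in counting, so reads of the 2 genes cannot be told apart. The same holds for ANKRD1, whose 2 peaks lie within RPP30 on the opposite strand, at 32.5 ± 1.53 FPKM in OAA and 33.4 ± 1.86 FPKM in CON. Neither ANKRD1 peak was called (-0.86 and -0.27 in OAA, -0.41 and 0.16 in CON). Peak 1 became called lower in OAA with the replicate block, with library size alone, and without replicate 3 of the OAA libraries labelled input or labelled IP. ANKRD1 peak 2 (chromosome 14, positions 102603852 to 102604051) held 4.06, 1.72 and 2.15 CPM in OAA, against 3.43, 2.18 and 2.61 CPM in CON, in the libraries labelled input, and 2.82, 3.55 and 5.27 CPM in OAA, against 2.73, 3.14 and 3.24 CPM in CON, in those labelled IP.

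**Figure D3:**
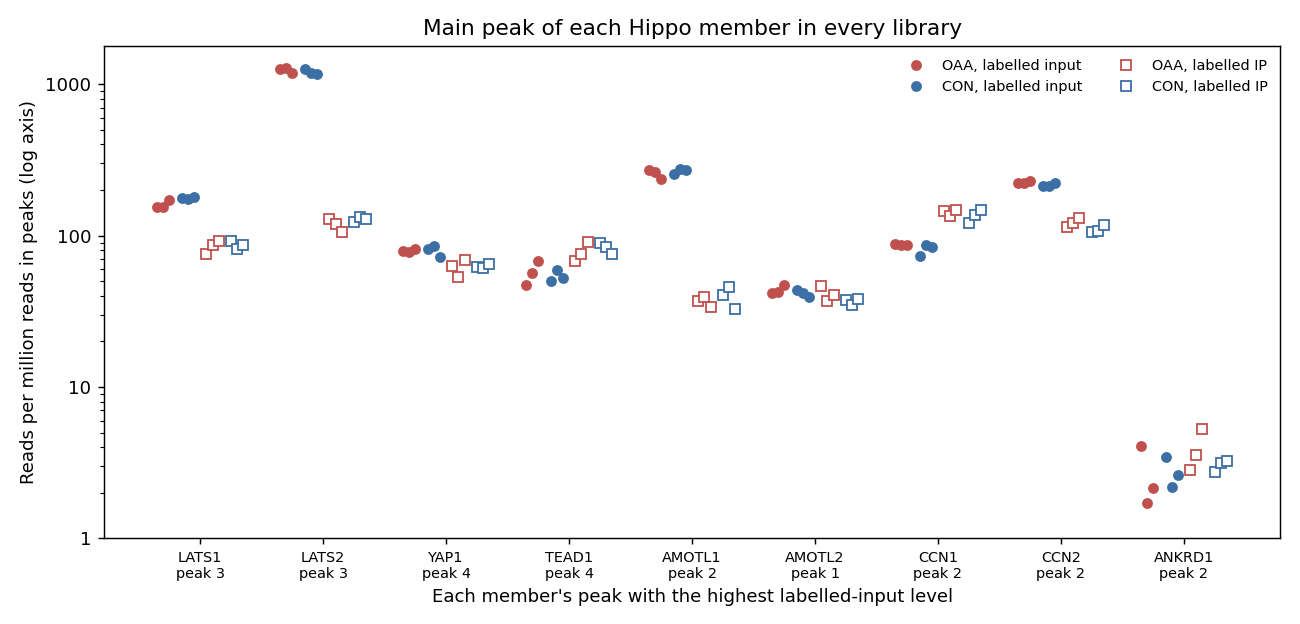
CPM of the peak with the highest labelled-input level of each member with a peak, in each of the 12 libraries (log axis), OAA left of CON. The labels are farthest apart for LATS2 and AMOTL1, and the labelled-IP values exceed the labelled-input values in every replicate of CCN1 and TEAD1 and in some of AMOTL2 and ANKRD1.

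**Figure D4:**
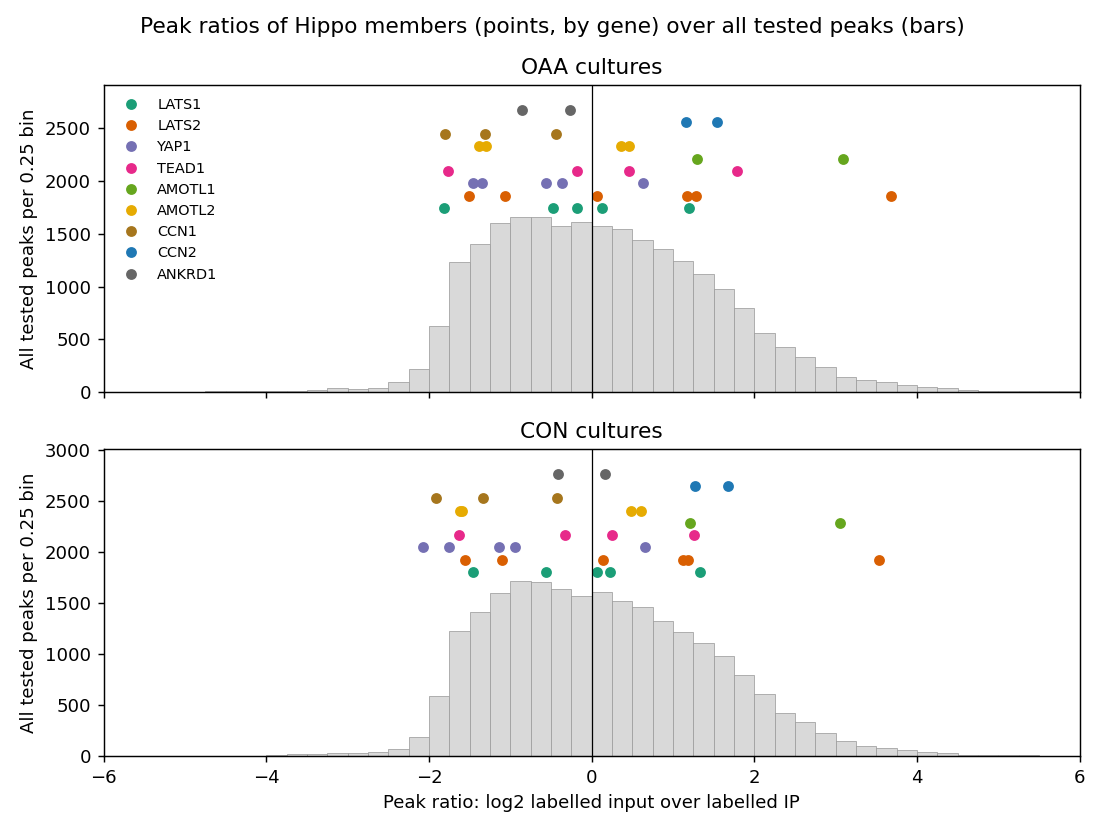
Distribution of the peak ratio over the 24145 tested peaks in OAA (above) and CON (below), with the member peaks marked. The member peaks spread over both sides of 0, from -1.82 to 3.68 in OAA and from -2.07 to 3.54 in CON.

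OAA changed the peak ratio of none of the 33 member peaks past the threshold, and edgeR called 0 of 24145 peaks (0.0%), with 1077 (4.46%) at an unadjusted p under 0.05. DESeq2 and the fit with the replicate number as a block each called 1 peak, which was not a member. The members' changes ran from -0.45 to 0.73, with a median of 0.04 beside -0.01 for all peaks. The largest was that of the YAP1 start-codon peak, at 0.73 ± 0.37 (SE, 95% interval -0.02 to 1.47, edgeR adjusted p = 0.999). This peak also had the lowest ratio of the members in CON, a value that enters the change. For LATS2 peak 3 the change was 0.14 (95% interval -0.06 to 0.34). The 95% interval reached 0.43 to either side of the estimate in the median member peak, 0.20 in the narrowest and 1.23 in the widest. In the authors' deposited table the difference between treatments ran from -0.43 to 0.81 over the 33 peaks, with a smallest p-value of 0.0966, for the same YAP1 peak, and an adjusted p of 1.00.

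Peak counts within one label gave the same picture for the members. In the libraries labelled input, edgeR called 0 of 24835 peaks (0.0%), with 1292 (5.20%) at an unadjusted p under 0.05, while DESeq2 called 2 and the block fit 1. The differences of member peaks ran from -0.57 to 0.55. LATS1 peak 3 was the 1 member peak of 33 with an unadjusted p under 0.05, lower in OAA by edgeR (log2 -0.15, adjusted p = 0.940). The OAA and CON libraries labelled input did not overlap in 7 of 33 member peaks, a larger share than the 11.3% of all peaks tested. That difference in share was not tested. Named after their values were seen, LATS1 peaks 2 and 3, TEAD1 peak 2 and AMOTL1 peak 1 were lower in OAA. CCN1 peaks 2 and 3 and CCN2 peak 2 were higher. In the libraries labelled IP, edgeR called 1 of 20098 peaks (0.00498%), with 781 (3.89%) at an unadjusted p under 0.05, and DESeq2 called 1. The called peak, named after its values were seen, is listed under env (chromosome 3, positions 10663073 to 10663297), was higher in OAA (log2 0.44, adjusted p = 0.0341) and is no member. Member differences there ran from -0.75 (TEAD1 peak 2) to 0.36 (ANKRD1 peak 2), and the groups did not overlap in 3 member peaks (LATS1 peak 1, LATS2 peak 4 and YAP1 peak 2, named after their values were seen), beside 9.64% of all peaks tested.

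**Figure D5:**
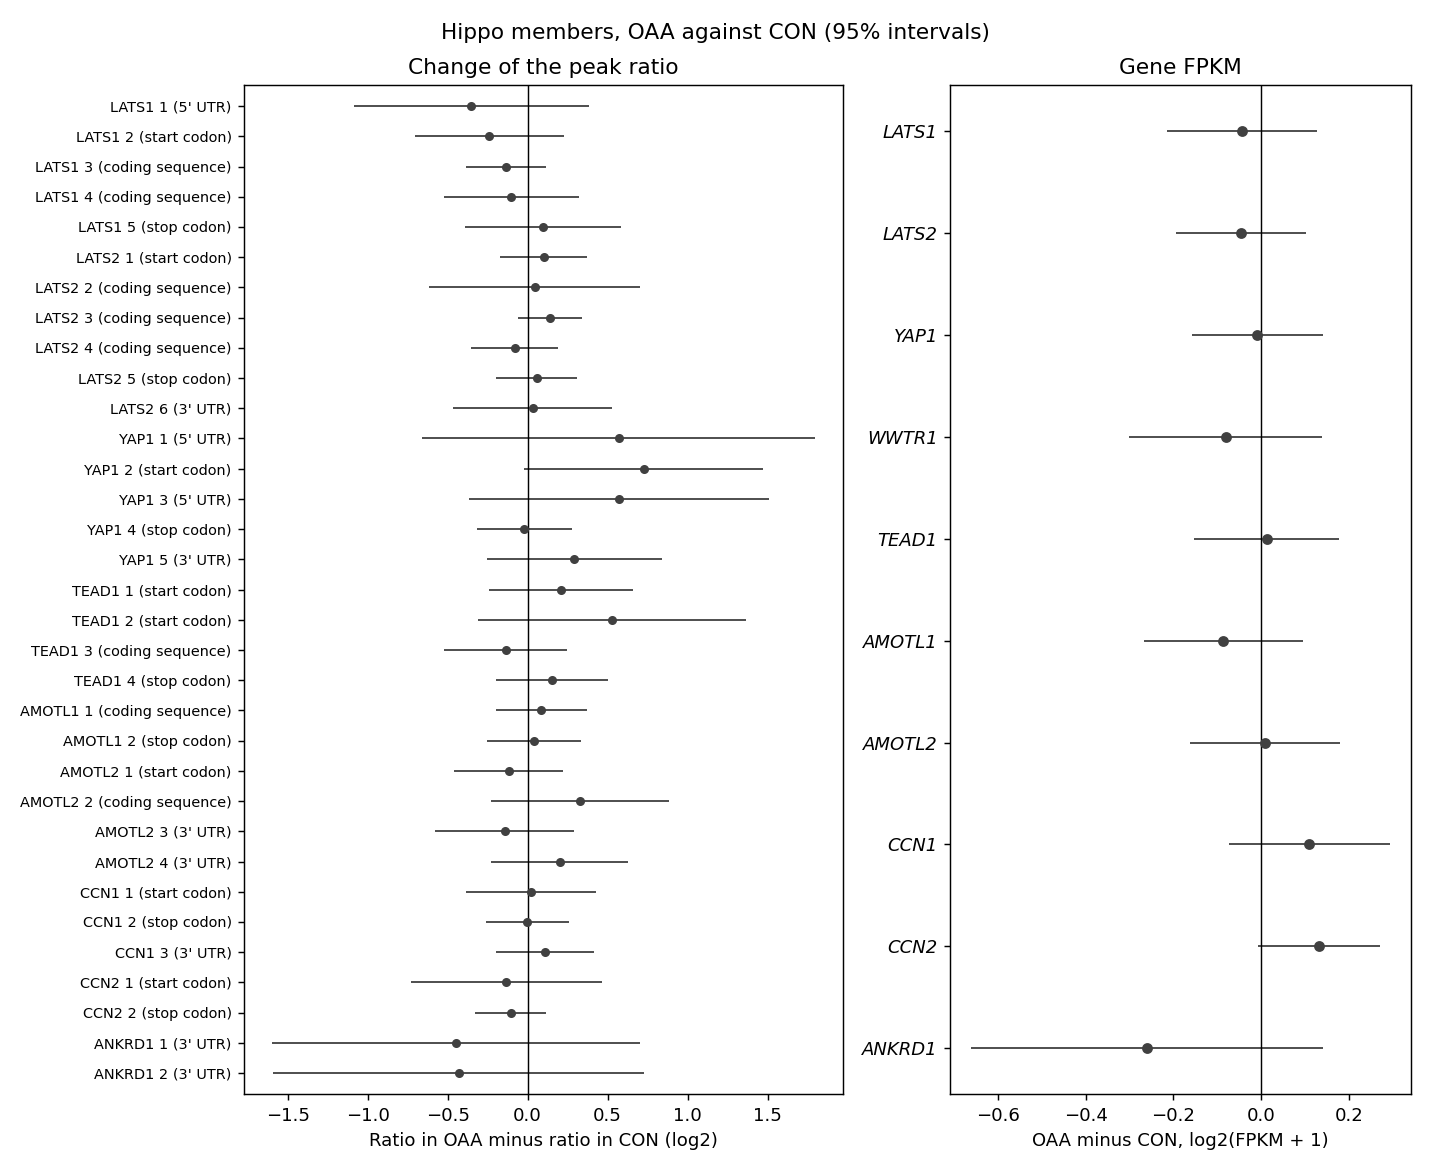
Differences between OAA and CON on the log2 scale, with 95% intervals, for the member peaks (change of the peak ratio) and for member FPKM. Estimates lie on both sides of 0, and none passed an adjusted p under 0.05.

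The wider pathway showed the same absence of calls between the treatments. Of 30 upstream regulators, 24 had 71 peaks in all. By edgeR, 0 of 71 were called for the change of the ratio, 0 of 71 in the libraries labelled input and 0 of the 67 tested in those labelled IP. The smallest p was that of a coding peak of WWC2, a scaffold upstream of LATS, in the libraries labelled input (log2 -0.29, edgeR adjusted p = 0.940). By FPKM 26 upstream genes, 5 partners and 14 other YAP/TAZ targets were tested, and limma called none. The 5 TEAD and VGLL partners had 14 peaks and 16 other targets had 38, and none of those tested was called between the treatments either, with 13 and 32 tested in the libraries labelled IP and 14 and 37 in the other comparisons. THBS1, a matrix glycoprotein, had the highest FPKM of the other targets, at 368 ± 11.9 FPKM in OAA and 352 ± 15.2 FPKM in CON. Its 2 peaks had log2 differences of 0.30 and 0.12 in the libraries labelled input (adjusted p = 0.940 by edgeR).

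For the peak ratio of these lists, the shares among all peaks were 34.1% higher and 34.4% lower in OAA, and 33.9% and 34.2% in CON. Upstream peaks were called higher in 20 and lower in 37 of 71 in OAA, and in 20 and 36 in CON, with medians of -0.31 in OAA and -0.42 in CON, beside 0.03 over all peaks in both, and differences between the lists were not tested. Among them, coding peaks of DLG5, a polarity scaffold, and LIMD1, a LATS-binding LIM protein, were called higher (1.81 and 1.92 in OAA, 1.82 and 1.93 in CON), and a coding peak of WWC1 (KIBRA), which activates LATS, was called lower at -1.51 in OAA and -1.89 in CON. Of the 37 tested peaks of other targets, 13 were called higher and 15 lower in OAA, and 14 and 12 in CON. The largest of those named by the smallest p was the start-codon peak of CRIM1, a membrane regulator of growth factors, at 2.48 in OAA and 2.19 in CON. Partner peaks were called higher in 5 and lower in 4 of 14 in OAA, and in 4 and 4 in CON. TEAD3 had a stop-codon peak above the typical peak (0.99 in OAA, 1.04 in CON), and the lowest partner peaks, at -2.59 in OAA and -2.75 in CON, were listed under both VGLL4, a TEAD cofactor that opposes YAP1, and ATG7.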

How the data were processed

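The submitters' processing notes name Bowtie2 and HISAT2. Which step each served, their versions, the peak caller and the build were not given in the sources used here. Per the file headers, the deposited peak table holds raw read counts of 12 libraries per merged peak, with the authors' log2 ratio per treatment, their p-value, adjusted p-value and -log10 p, and the gene table deposited beside it gives FPKM for 6 libraries. Every per-library column had a matching sample. Each distinct peak was used once.

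Counts were tested per peak by the quasi-likelihood F test of edgeR 4.0.16 after TMM scaling and filterByExpr in R 4.3.3. The peak ratio and its change came from 1 fit of 12 libraries, and OAA against CON from the 6 libraries of each label. TMM sets the typical peak near 0, so ratios are relative. log2(FPKM + 1) was tested with limma 3.58.1 (trend), keeping genes that reached 1 FPKM in 3 libraries; this scale understates changes of low genes. Calls have a Benjamini-Hochberg adjusted p under 0.05 over all features tested. The CPM shown are read counts scaled to each library's total in peaks, without TMM factors. Per-kilobase values divide by the genomic span, introns included. The scripts were tested on simulated data.

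Members and gene lists were chosen with earlier results of these data known. All members are described, with counts per library for the peak of highest mean labelled-input CPM, and the peaks of highest and lowest ratio in CON. Of each wider list, up to 4 genes of smallest p per comparison could be named, and the text names a part of these. Same-numbered libraries were taken from the protocol to share RNA; their deviations had r of -0.01 to 0.06 within a treatment (other numbers -0.04 to 0.03) and of -0.06 to 0.00 between treatments. Alternatives were relative log expression scaling, library size alone, no filter, DESeq2 1.42.0, a replicate block, each library left out, and for FPKM a pseudocount of 0.1, no minimum and quantile normalization.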

Additional observations from a re-analysis of the deposited data

How the results depend on the processing

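Among the members' results, no alternative led to a call between OAA and CON. Over all features, the count for the change of the ratio (0) became 1 with the replicate block and 1 with DESeq2, and 0 to 1 when single libraries were left out. The count in the libraries labelled input (0) became 1 with the block, 2 with DESeq2 and 0 to 1 with libraries left out. The count in the libraries labelled IP (1) became 0 with library size alone, 4 with no filter, 4 with the block and 0 to 50 with libraries left out, 50 being without OAA replicate 3. By FPKM, the count (0) became 1 with no minimum. The replicate block changed no member call but 1: ANKRD1 peak 1 in OAA became called lower. Library size alone moved the median ratio by -0.27 in OAA and -0.30 in CON, gave 6726 higher and 9896 lower calls in OAA (8235 and 8295 with TMM) and 6512 and 10070 in CON (8181 and 8248 with TMM), and 10 higher and 17 lower member peaks in OAA and 10 and 15 in CON. Small values changed sign, which was followed only for the members' FPKM and for the peaks with counts per library given above. With library size alone these were ANKRD1 peak 2 in CON (-0.14) and the changes of YAP1 peak 4 (0.0088) and CCN1 peak 2 (0.028), with no filter YAP1 peak 4 labelled IP (0.0040), and with quantile normalization YAP1 FPKM (0.0033). With single libraries left out, the ratio in OAA ran from -0.28 to 0.010 for TEAD1 peak 4 and from -0.66 to 0.028 for ANKRD1 peak 2. The change ran from -0.11 to 0.065 for YAP1 peak 4, -0.078 to 0.15 for AMOTL1 peak 2 and -0.072 to 0.067 for CCN1 peak 2. Labelled-input differences ran from -0.073 to 0.049 for YAP1 peak 4, -0.041 to 0.21 for TEAD1 peak 4, -0.10 to 0.0084 for AMOTL1 peak 2 and -0.51 to 0.18 for ANKRD1 peak 2. Labelled-IP differences ran from -0.093 to 0.052 for LATS1 peak 3, -0.088 to 0.092 for YAP1 peak 4, -0.20 to 0.019 for TEAD1 peak 4 and -0.23 to 0.0087 for AMOTL1 peak 2. FPKM differences ran from -0.087 to 0.0083 for LATS1, -0.077 to 0.0028 for LATS2, -0.057 to 0.021 for YAP1, -0.071 to 0.059 for TEAD1 and -0.035 to 0.068 for AMOTL2. The cause of these shifts was not tested. Few reads limit the ANKRD1 peaks and the peaks at the 5′ end of YAP1.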
